A study of Rattus norvegicus with 10 samples.

Results

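The cell cycle and DNA replication genes described here are a list of 36 symbols, matched to the gene symbol column of the deposited TPM table. Of these, 34 had a row among the 32883 genes of the table, and Ccnb2 and E2f1 were not analysed here. The list was drawn up by function, with no cut on a measured value. The livers came from 5-week-old male rats, 5 Eisai hyperbilirubinemic rats (EHBR) and 5 Sprague-Dawley rats (SD), numbered 1 to 5 within each strain. EHBR descend from SD stock and carry a loss of Abcc2, which encodes the bile canalicular pump Mrp2. No treatment is given in the labels for either strain. The loss of Abcc2 cannot be told apart here from any other difference between the strains. Breeding and housing are not described in the labels, so p-values speak only for the spread between these livers. TPM scales the transcript levels of each sample to a common total and corrects for gene length.

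Abcc2 had 17.2, 17.6, 12.3, 11.9 and 10.1 TPM in EHBR livers 1 to 5, against 199, 224, 271, 60.0 and 66.4 TPM in SD livers 1 to 5. The strains did not overlap for it, and SD livers 4 and 5 were below SD livers 1 to 3. Reads assigned to genes, recovered from the deposited values, ranged from 13.8 to 17.6 M in EHBR and from 15.6 to 19.6 M in SD. The 10 hepatocyte markers summed to 161286 to 184911 TPM in EHBR and to 141289 to 173203 TPM in SD, as the labelled tissue calls for. SD livers 4 and 5 had the lowest sums of the 10 livers, at 144896 and 141289 TPM. Livers 4 and 5 of both strains stood apart from livers 1 to 3, a division that was found in the values and is not in the labels. Each strain difference was therefore tested over all livers, within numbers 1 to 3 and within numbers 4 and 5. Where a gene of the list is given within numbers 4 and 5 alone, it passed neither of the other tests.

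In a dividing cell, cyclin D with Cdk4 and then cyclin E with Cdk2 open the way into S phase, which the inhibitors Cdkn1a and Cdkn1b restrain. The MCM complex unwinds DNA at the replication fork, Pcna clamps polymerases to it, and ribonucleotide reductase and thymidylate synthase supply nucleotides. Cdk1 with cyclins A and B drives mitosis, together with the Plk1 and Aurora kinases, the Bub1 checkpoint and the Cdc20 form of the anaphase-promoting complex. Most hepatocytes of an adult liver are out of the cycle, while the liver of a young, growing rat still holds dividing cells. In whole liver, fewer cycling cells and less of these transcripts per cell cannot be told apart.

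Over all 10 livers, 0 of the 29 cell cycle genes tested differed between the strains at the threshold, with 5.45% of all genes called. SD livers 4 and 5 were the 2 lowest of the 10 livers for 25 of the 34 genes with a row, among them all of the S phase and mitosis genes but Pcna and Birc5, where 25.2% of genes above 0 had that order. Within numbers 4 and 5, 19 of the 29 were higher in EHBR by the test, with 19.6% of all genes higher, led by Cdk1, Rrm2, Mcm6, Ccnb1, Mcm5 and Top2a. That count fell to 8 after each liver was centred on its median gene, with 3.63% of all genes higher, and to between 5 and 12 without 1 of the 4 livers of that part. Ccnd1, the gene of cyclin D1, went the other way and was lower in EHBR within numbers 1 to 3 (2.29% of all genes were) and within numbers 4 and 5 (3.38% were). The kinases Cdk2 and Cdk4 and the inhibitors Cdkn1a and Cdkn1b passed none of these tests.

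**Figure D1:**
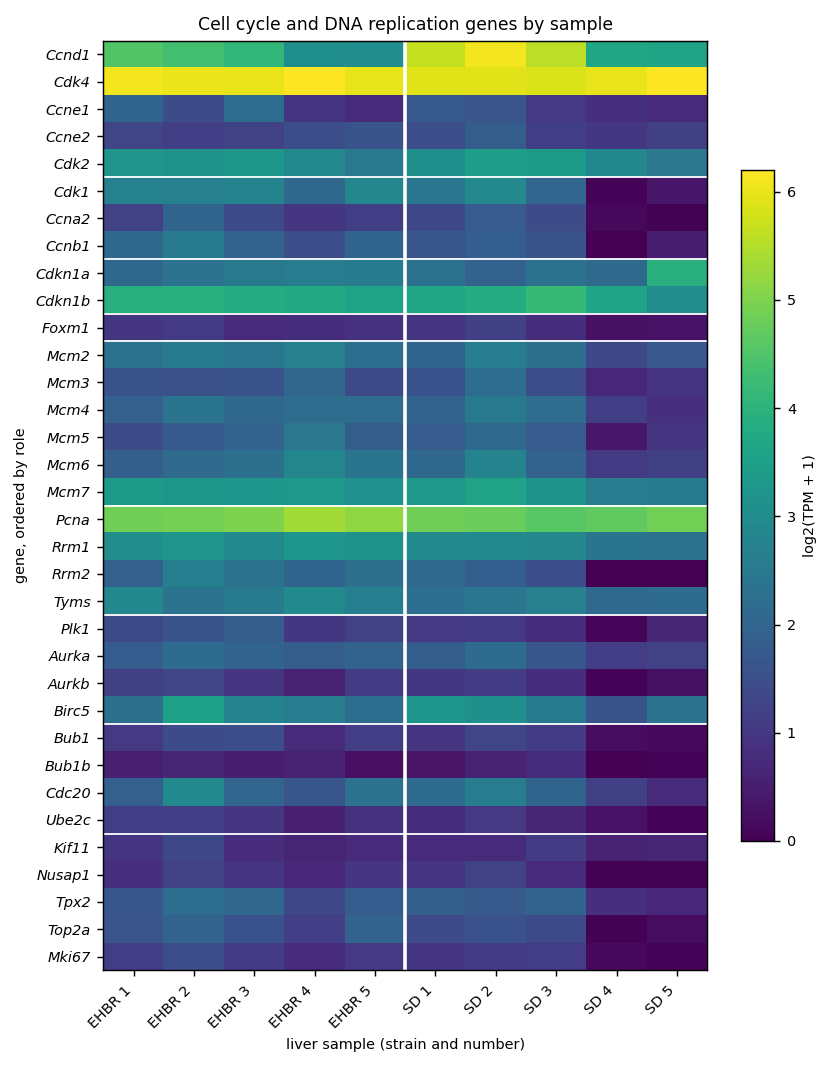
Heat map of log2(TPM + 1) for the 34 genes with a row (down the page, ordered by role, white lines between roles) in each of the 10 livers (across, EHBR left of SD). The columns of SD livers 4 and 5 are dark for most genes from Cdk1 down, while Cdk4 and Pcna stay bright in all 10 columns.

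Levels of the list ran from under 1 TPM for Bub1b, Foxm1, Nusap1 and Kif11 in most livers to over 50 TPM for Cdk4 in every liver. A filter asking for 1 TPM or more in 5 or more livers kept 29 of the 34 genes and left out Foxm1, Bub1b, Ube2c, Kif11 and Nusap1. A gene that is high in 1 strain alone can pass that filter through that strain, so counts over the 29 genes are a description. The 27 genes other than the G1 group and the inhibitors summed to 100, 126, 109, 114 and 111 TPM in EHBR livers 1 to 5, against 99.2, 116, 88.5, 48.9 and 56.5 TPM in SD livers 1 to 5. In reads, the same genes had 2235, 2822, 2654, 2815 and 2226 in EHBR, against 2535, 2832, 2087, 1278 and 1459 in SD. SD livers 4 and 5 were the lowest of the 10 on both scales, although they were the deepest libraries.

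SD livers 4 and 5 were both below SD livers 1 to 3 for 30 of the 34 genes (88.2%), against 37.1% of the 18443 genes above 0 in any liver. EHBR livers 4 and 5 were both below EHBR livers 1 to 3 for 9 of the 34 (26.5%), against 23.7% of those 18443. The 9 were Ccna2, Ccnd1, Ccne1, Cdk2, Cdkn1b, Kif11, Mki67, Plk1 and Ube2c. SD livers 4 and 5 were also the 2 lowest of all 10 livers for 25 of the 34 genes, or 73.5%, where 25.2% of genes above 0 were. Among genes that passed the filter, and with every liver centred on its median gene, that held for 14 of 29 (48.3%), against 1109 of 11083. The share in SD livers stood above that of other genes, and the share in EHBR livers stood near it.

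**Figure D2:**
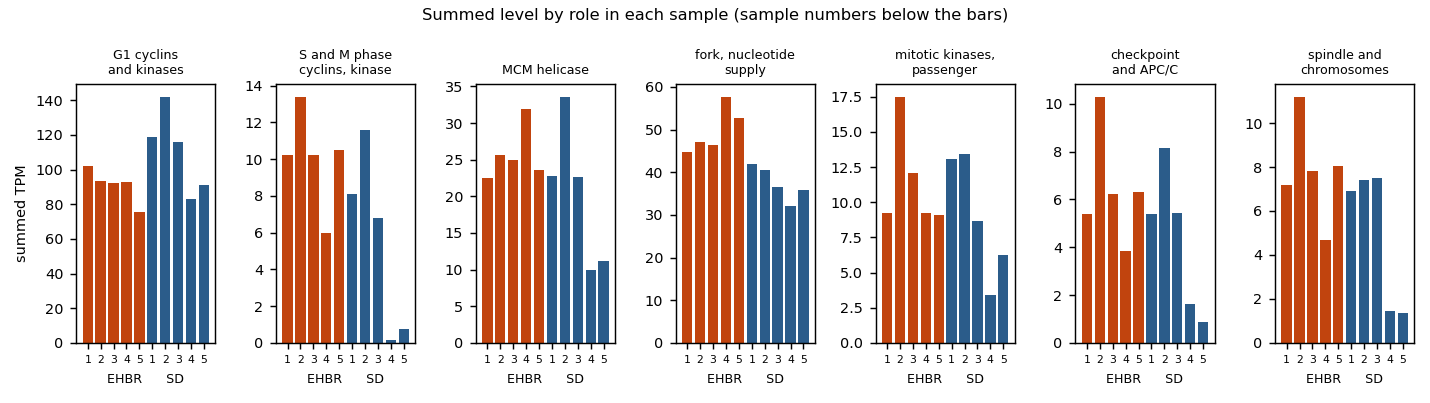
Summed TPM of the genes of each role (y axis, starting at 0, a scale of its own in each panel) in EHBR livers 1 to 5 and then SD livers 1 to 5 (x axis). In the panel of the S and M phase cyclins and kinase, SD livers 4 and 5 reach 0.143 and 0.77 TPM, and the other 8 livers lie between 5.97 and 13.4 TPM.

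Over all 10 livers the limma test called 0 of the 29 genes, with 604 of 11083 genes called in either direction, or 5.45%. At an unadjusted p under 0.05 there were 7 of the 29, and all 7 were higher in EHBR, while 2317 of the 11083 passed that mark. Limma-voom on the recovered reads also called 0 of the 29. The median difference of the 29 genes, EHBR minus SD, was 0.39 on the log2(TPM + 1) scale, beside 0.15 for all genes tested. A difference above 0 was seen for 26 of 29 genes and for 73.1% of all genes tested. After each liver was centred on its median, the 2 medians were 0.22 and -0.02. Of all genes called, 70% were higher in EHBR in TPM and 42% after that centring. With SD livers 4 and 5 left out, a check chosen after seeing the data, none of the 29 was higher and Ccnd1 was lower (-1.97, limma adjusted p = 0.0116), with 6.43% of all genes called. With a term for the 2 parts in the model, Ccnb1, Pcna, Plk1 and Rrm2 were higher over all livers (13.8% of the 29, against 13.6% of all genes) and Ccnd1 was lower (3.45%, against 3.36%), shares close to those of all genes.

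Within numbers 1 to 3 no gene of the list was higher in EHBR, and Ccnd1 alone was lower, with 4.84% of all genes higher and 2.29% lower. The median of the 29 genes was 0.11, beside 0.07 for all genes, and 19 of the 29 were above 0 (62.5% of all genes were). Within numbers 4 and 5, 19 of 29 genes (65.5%) were higher and 1 was lower, with 19.6% of all genes higher and 3.38% lower. The median of the 29 genes was 0.77 there, beside 0.27 for all genes. Centring each liver on its median moved the median of all genes to -0.05 and that of the 29 to 0.46. It left 8 of the 29 higher, namely Ccnb1, Cdk1, Mcm4, Mcm5, Mcm6, Rrm1, Rrm2 and Top2a, with 3.63% of all genes higher. Of all genes called within numbers 4 and 5, 85.3% were higher in EHBR in TPM, 67.5% in FPKM, 42.1% in upper-quartile FPKM and 29% after median centring.

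The number of genes called higher within numbers 4 and 5 depended on single livers, for the list and for all genes. It was 5 of 29 without EHBR liver 4, with 3.08% of all genes higher, and 12 without EHBR liver 5, with 10.8% of all genes higher. It was 8 without SD liver 4, with 13.0% of all genes higher, and 8 without SD liver 5, with 5.59%. Cdk1, Ccnb1, Rrm2, Top2a and Rrm1 were called in all of the alternatives of this contrast in which they were tested. In a separate fit of numbers 4 and 5 alone, Top2a did not pass (1.43, limma adjusted p = 0.0553), while Cdk1, Ccnb1, Rrm2 and Rrm1 did. The difference between the 2 within-part contrasts was tested directly, as numbers 4 and 5 minus numbers 1 to 3. Limma called 0 of the 29 genes there, with 0.271% of all genes called, so the strain difference was not shown to differ between the parts for any gene of the list. At an unadjusted p under 0.05 there were 17 of the 29 and 2252 of the 11083, and limma-voom on reads called 0 of the 29. A pseudocount of 0.1 called 2, Cdk1 and Rrm2.

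**Figure D3:**
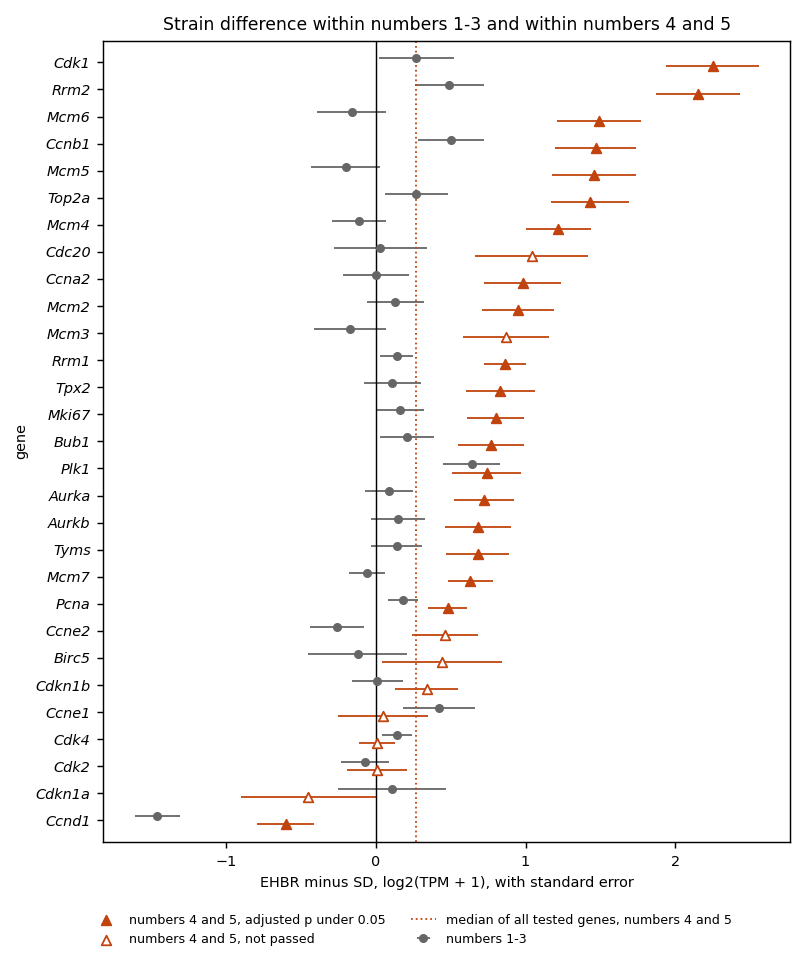
Strain difference on the log2(TPM + 1) scale (x axis, EHBR minus SD, bars are standard errors) for the 29 tested genes, within numbers 4 and 5 (triangles) and within numbers 1 to 3 (grey circles). Filled triangles passed an adjusted p of 0.05, and most lie right of the dotted line at 0.27, the median of all genes within numbers 4 and 5.

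Cdk1, the kinase that starts mitosis, had 5.56, 5.49, 5.78, 3.24 and 6.28 TPM in EHBR livers 1 to 5, against 4.36, 6.52, 3.07, 0.0512 and 0.3 TPM in SD livers 1 to 5. Every EHBR liver and SD livers 1 to 3 held it at several TPM, and in SD livers 4 and 5 it rested on 1 and 6 reads. Its means were 5.27 ± 1.17 TPM in EHBR and 2.86 ± 2.74 TPM in SD (mean ± standard deviation, n = 5 each). The difference was 1.06 ± 0.50 (standard error) over all livers, which did not pass (limma adjusted p = 0.248). Within numbers 4 and 5 it was 2.25 ± 0.31 (limma adjusted p = 0.00438), and within numbers 1 to 3 it was 0.27 ± 0.25 (limma adjusted p = 0.592). The gene lies at chr20:20576377-20591549 on the plus strand of rn6, per the deposited table.

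Ccnb1 encodes cyclin B1, the partner of Cdk1. It had 3.28, 4.95, 2.85, 1.75 and 3.0 TPM in EHBR, against 2.18, 2.60, 2.01, 0 and 0.440 TPM in SD. EHBR liver 4 was the lowest EHBR liver and lay below SD livers 1 to 3, and SD liver 4 had 0 reads for Ccnb1. The difference was 0.89 ± 0.35 over all livers (limma adjusted p = 0.178) and 1.47 ± 0.27 within numbers 4 and 5 (limma adjusted p = 0.00915). Ccna2, cyclin A2, had 1.31, 2.97, 1.59, 0.968 and 1.23 TPM in EHBR, against 1.56, 2.45, 1.71, 0.0918 and 0.0299 TPM in SD. In SD livers 4 and 5 it rested on 2 and 4 reads, an order opposite to that of the TPM values. It differed by 0.98 ± 0.26 within numbers 4 and 5 (limma adjusted p = 0.0291), and by 0.67 with an adjusted p of 0.130 in limma after median centring.

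The letters upstream of 6 of these genes are shown, Cdk1, Ccnb1, Plk1 and Top2a of mitosis and Mcm5 and Mcm6 of replication. All 6 were higher within numbers 4 and 5. Plk1 kept that call in 2 of 18 alternatives and lost it after median centring (0.43, limma adjusted p = 0.312). The 6 do not stand for all promoters of the list, whose words are counted below. Late cell cycle promoters are known for CCAAT boxes, bound by NF-Y, with a cell cycle homology element (TTTGAA or TTTAAA), and replication genes for E2F words such as TTTCCCGC and TTTGGCGC. Each line gives the 150 bases that end just before the annotated start, 5′ to 3′ on the gene's strand, from RefSeq on build GRCr8, which is not the build of the deposited table. Capitals mark the CCAAT box, both forms of the homology element and both E2F words. On the other strand the box reads ATTGG, and the first form of the element reads TTCAAA.
Ccnb1: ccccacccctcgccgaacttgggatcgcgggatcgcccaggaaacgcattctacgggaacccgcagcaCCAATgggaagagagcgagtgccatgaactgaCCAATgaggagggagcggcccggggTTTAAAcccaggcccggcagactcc
Cdk1: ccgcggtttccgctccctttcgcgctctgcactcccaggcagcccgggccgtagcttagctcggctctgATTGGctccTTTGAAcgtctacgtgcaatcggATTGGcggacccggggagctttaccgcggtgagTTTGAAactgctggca
Mcm5: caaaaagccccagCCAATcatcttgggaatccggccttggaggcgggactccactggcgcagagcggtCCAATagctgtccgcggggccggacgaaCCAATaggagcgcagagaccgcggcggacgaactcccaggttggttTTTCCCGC
Mcm6: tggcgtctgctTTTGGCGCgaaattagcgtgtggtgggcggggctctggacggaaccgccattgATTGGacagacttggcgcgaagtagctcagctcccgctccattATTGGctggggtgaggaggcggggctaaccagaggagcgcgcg
Plk1: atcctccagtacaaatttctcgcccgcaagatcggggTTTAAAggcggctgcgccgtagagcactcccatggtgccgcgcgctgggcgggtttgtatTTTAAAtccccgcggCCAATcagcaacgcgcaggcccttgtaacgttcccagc
Top2a: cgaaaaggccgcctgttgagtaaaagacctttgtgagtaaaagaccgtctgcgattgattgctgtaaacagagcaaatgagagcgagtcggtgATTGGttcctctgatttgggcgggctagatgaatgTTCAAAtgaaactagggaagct
Ccnb1 is from chr2:33655226-33655375, minus strand, Cdk1 from chr20:19265143-19265292, plus strand, and Mcm5 from chr19:13488663-13488812, plus strand. Mcm6 is from chr13:42404353-42404502, minus strand, Plk1 from chr1:186147508-186147657, plus strand, and Top2a from chr10:84473094-84473243, minus strand.

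In the 250 bases before the start, both strands searched, 26 of the 36 genes matched a RefSeq promoter. CCAAT was found in 18 of the 26 (69.2%), against 34.02% of all 33469 promoters in that table. TTTGAA was found in 7 (26.9%, against 16.2%) and TTTAAA in 8 (30.8%, against 12.26%). CCAAT together with either of those elements stood in 11 of 26 (42.3%), against 9.04% of all promoters. They were Birc5, Ccnb1, Ccnb2, Cdc20, Cdk1, Cdkn1b, Kif11, Mki67, Nusap1, Plk1 and Top2a. An E2F word stood in 4 of 26 (15.4%, against 1.21%), which were Mcm5, Mcm6, Mcm7 and Tyms. GGGCGG, the Sp1 box, was found in 18 (69.2%, against 30.47%), a gap like that of CCAAT. All promoters were taken with no selection by gene type or expression, and the part of that in these gaps was not tested. In the 150 bases shown for Cdk1, CCAAT lies on the minus strand at positions -81 to -77 and -49 to -45 from the start, with TTTGAA at -72 to -67 and -16 to -11, and a further CCAAT lies upstream of them at -210 to -206. Cdkn1b holds CCAAT with TTTAAA and did not pass the test, and Rrm1 holds CCAAT without either element and passed it within numbers 4 and 5.

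**Figure D4:**
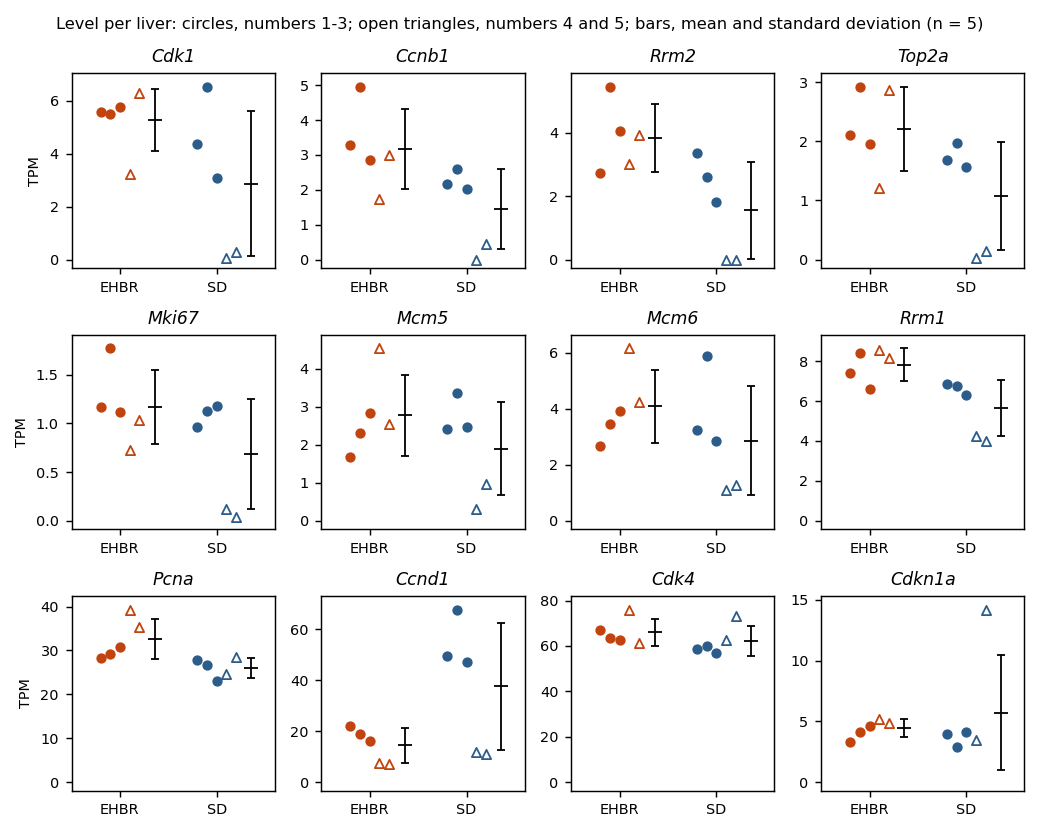
TPM of 12 genes in each liver (y axis in TPM, EHBR left of SD; circles are numbers 1 to 3, open triangles numbers 4 and 5, and bars the mean and standard deviation of 5 livers). For Cdk1, Ccnb1, Rrm2, Top2a and Mki67 the SD triangles lie near 0, for Ccnd1 the SD circles lie above all other points, and for Cdkn1a SD liver 5 stands alone at 14.2 TPM.

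Within numbers 4 and 5, 5 of the 6 MCM helicase genes were higher in EHBR, with 19.6% of all genes higher. Mcm3 missed the threshold there at 0.87 ± 0.29 (limma adjusted p = 0.0558). After median centring 3 of the 6 were higher, with 3.63% of all genes higher. The summed level of the 6 genes was 22.5, 25.6, 25.0, 31.9 and 23.6 TPM in EHBR, against 22.8, 33.6, 22.7, 9.97 and 11.2 TPM in SD. SD liver 2 was the highest of the 10 and SD livers 4 and 5 were the lowest. Within numbers 1 to 3 all 6 lay between -0.20 (Mcm5) and 0.13 (Mcm2), and none passed.

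Mcm5 had 1.67, 2.32, 2.84, 4.54 and 2.55 TPM in EHBR, against 2.41, 3.36, 2.46, 0.320 and 0.960 TPM in SD. EHBR liver 4 was the highest liver and SD liver 4 the lowest. The difference within numbers 4 and 5 was 1.46 ± 0.28 (limma adjusted p = 0.0102). Mcm6 had 2.66, 3.44, 3.90, 6.15 and 4.23 TPM in EHBR, against 3.23, 5.88, 2.84, 1.09 and 1.26 TPM in SD, again with EHBR liver 4 highest. It differed by 1.49 ± 0.28 within numbers 4 and 5 (limma adjusted p = 0.00973). Over all livers, Mcm6 differed by 0.50 and Mcm5 by 0.47, and neither passed.

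Mcm4 had 2.72, 4.23, 3.29, 3.66 and 3.66 TPM in EHBR, against 2.95, 4.69, 3.66, 1.21 and 0.803 TPM in SD. The strains overlapped in numbers 1 to 3 and were apart in numbers 4 and 5, where the difference was 1.22 ± 0.22 (limma adjusted p = 0.00881). Mcm2 differed by 0.95 ± 0.24 within numbers 4 and 5 (limma adjusted p = 0.0229). Mcm7, the most abundant MCM subunit with a mean of 8.71 ± 0.592 TPM in EHBR and 7.67 ± 2.57 TPM in SD, differed by 0.63 ± 0.15 (limma adjusted p = 0.0193). After median centring Mcm2 and Mcm7 no longer passed, at 0.64 and 0.31.

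Rrm2, the small subunit of ribonucleotide reductase and an S phase gene, had 2.73, 5.44, 4.06, 3.0 and 3.92 TPM in EHBR, against 3.35, 2.59, 1.81, 0 and 0 TPM in SD. SD livers 4 and 5 had 0 reads for Rrm2, where EHBR livers 4 and 5 had 39 and 40. Scaled to library depth, and with a floor of 3 reads per library for a count of 0, EHBR livers 4 and 5 were at least 16.7-fold higher. That bound covers only the counting error of the 0 counts in SD and takes the EHBR counts as exact. The difference was 1.15 ± 0.41 over all livers (limma adjusted p = 0.138), 0.49 ± 0.23 within numbers 1 to 3 (limma adjusted p = 0.239) and 2.15 ± 0.28 within numbers 4 and 5 (limma adjusted p = 0.00333). The last of these depends on the pseudocount, since the gene is at 0 in both SD livers.

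Rrm1, the large subunit, had 7.38, 8.42, 6.60, 8.53 and 8.15 TPM in EHBR, against 6.86, 6.75, 6.29, 4.26 and 4.02 TPM in SD. EHBR liver 3 was the only EHBR liver below an SD liver. It differed by 0.43 ± 0.16 over all livers (limma adjusted p = 0.153) and by 0.86 ± 0.14 within numbers 4 and 5 (limma adjusted p = 0.00627). Unlike Rrm2, Rrm1 was read by over 200 reads in every liver.

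Pcna, the sliding clamp, had 28.2, 29.1, 30.9, 39.3 and 35.3 TPM in EHBR, against 27.9, 26.7, 23.0, 24.6 and 28.4 TPM in SD. The strains overlapped only through EHBR liver 1 and SD liver 5, and SD livers 4 and 5 were not the lowest SD livers, unlike those of the other replication genes of the list. It differed by 0.30 ± 0.11 over all livers (limma adjusted p = 0.160) and by 0.48 ± 0.13 within numbers 4 and 5 (limma adjusted p = 0.0262), and by 0.17 there after median centring (limma adjusted p = 0.476). Tyms, thymidylate synthase, had 6.41, 4.17, 4.85, 6.84 and 5.35 TPM in EHBR, against 3.80, 4.40, 5.47, 3.31 and 3.50 TPM in SD. It differed by 0.68 ± 0.21 within numbers 4 and 5 (limma adjusted p = 0.0449). The 4 genes of the fork and nucleotide supply summed to 44.7 to 57.7 TPM in EHBR and to 32.1 to 42.0 TPM in SD, a sum set mainly by Pcna.

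Plk1, a kinase needed for centrosome maturation and spindle assembly, was the gene of the list with the smallest p over all livers. It had 1.62, 2.01, 2.54, 1.02 and 1.35 TPM in EHBR, against 1.03, 1.06, 0.767, 0.0646 and 0.600 TPM in SD. EHBR liver 4 was just below SD livers 1 and 2, and the other EHBR livers were above every SD liver. The difference was 0.68 ± 0.21 over all livers (limma adjusted p = 0.0917), 0.64 ± 0.19 within numbers 1 to 3 (limma adjusted p = 0.0793) and 0.74 ± 0.23 within numbers 4 and 5 (limma adjusted p = 0.0483). The 2 within-part differences were thus close for Plk1, with 0.10 ± 0.30 between them. The call within numbers 4 and 5 was kept in 2 of 18 alternatives.

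Aurka, the spindle pole kinase, and Aurkb, the kinase of the chromosomal passenger complex, were higher in EHBR within numbers 4 and 5. Aurka had 2.54 and 2.90 TPM in EHBR livers 4 and 5, against 1.20 and 1.32 TPM in SD livers 4 and 5, a difference of 0.72 ± 0.20 (limma adjusted p = 0.0312). Aurkb had 0.540 and 1.12 TPM in EHBR livers 4 and 5, against 0.0492 and 0.208 TPM in SD livers 4 and 5, a difference of 0.68 ± 0.22 (limma adjusted p = 0.0499). Aurkb kept the call in 1 of 18 alternatives and Aurka in 10 of 18. Within numbers 1 to 3 the strains overlapped for both, and the differences of 0.09 for Aurka and 0.15 for Aurkb did not pass. Birc5, survivin of the passenger complex, had 3.90, 10.5, 5.78, 5.14 and 3.72 TPM in EHBR, against 8.52, 7.71, 4.97, 2.07 and 4.12 TPM in SD. It varied widely within both strains and passed no test.

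Bub1, the checkpoint kinase at kinetochores, had 1.03, 1.70, 1.78, 0.705 and 1.17 TPM in EHBR, against 0.895, 1.46, 1.10, 0.161 and 0.0943 TPM in SD. It differed by 0.77 ± 0.22 within numbers 4 and 5 (limma adjusted p = 0.0364). Bub1b, its relative BubR1, was under 1 TPM in every liver and was not tested, with 21 and 9 reads in EHBR livers 4 and 5 and 0 in SD livers 4 and 5, although the TPM table lists 0.0346 for SD liver 5. Cdc20, which activates the anaphase-promoting complex, had 2.17 and 4.04 TPM in EHBR livers 4 and 5, against 1.25 and 0.677 TPM in SD livers 4 and 5, a difference of 1.04 ± 0.38 that missed the threshold (limma adjusted p = 0.0716). Ube2c, the ubiquitin-conjugating enzyme of that complex, had 0.456 and 0.890 TPM in EHBR livers 4 and 5, against 0.225 and 0.0487 TPM in SD livers 4 and 5, and was below the filter.

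Top2a, the topoisomerase that untangles sister chromatids, had 2.11, 2.92, 1.95, 1.21 and 2.87 TPM in EHBR, against 1.68, 1.97, 1.57, 0.0259 and 0.152 TPM in SD. EHBR liver 4 was below SD livers 1 to 3, and SD livers 4 and 5 rested on 2 and 11 reads. It differed by 0.73 ± 0.32 over all livers (limma adjusted p = 0.217) and by 1.43 ± 0.26 within numbers 4 and 5 (limma adjusted p = 0.00885). Mki67, the source of the Ki-67 proliferation antigen, had 1.17, 1.77, 1.12, 0.730 and 1.03 TPM in EHBR, against 0.961, 1.13, 1.18, 0.117 and 0.0357 TPM in SD. EHBR livers 4 and 5 were the lowest EHBR livers for it and still lay above SD livers 4 and 5. It differed by 0.80 ± 0.19 within numbers 4 and 5 (limma adjusted p = 0.0201), and by 0.49 after median centring (limma adjusted p = 0.123).

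Tpx2, which loads Aurka on the spindle, had 1.55 and 2.49 TPM in EHBR livers 4 and 5, against 0.770 and 0.601 TPM in SD livers 4 and 5. It differed by 0.83 ± 0.23 there (limma adjusted p = 0.0317). Within numbers 1 to 3 the strains overlapped for Tpx2, and the difference of 0.11 did not pass. Nusap1, a spindle microtubule protein, had 0.648 and 0.986 TPM in EHBR livers 4 and 5, against 0.0172 and 0.0336 TPM in SD livers 4 and 5. It was below the filter, and with no filter it differed by 0.82 (limma adjusted p = 0.0319). Kif11, the motor that separates spindle poles, had 0.558 and 0.687 TPM in EHBR livers 4 and 5, against 0.535 and 0.552 TPM in SD livers 4 and 5, the smallest gap of the mitosis genes. Foxm1, a transcription factor of late cell cycle genes, had 0.746 and 0.852 TPM in EHBR livers 4 and 5, against 0.211 and 0.227 TPM in SD livers 4 and 5, and with no filter it did not pass (limma adjusted p = 0.0547). With no filter, 13 of the 34 genes were higher within numbers 4 and 5 (38.2%), with 7.99% of 18443 genes higher.

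Ccnd1 was the exception of the list. It had 22, 19, 16.2, 7.47 and 7.17 TPM in EHBR, against 49.4, 67.6, 47.1, 12.0 and 11.2 TPM in SD. In both strains livers 4 and 5 were below livers 1 to 3, and within each part of the series every EHBR liver was below every SD liver. Over all livers the strains overlapped, and the difference of -1.12 ± 0.52 did not pass (limma adjusted p = 0.246). With a term for the 2 parts in the model the same difference passed (limma adjusted p = 0.00238). Within numbers 1 to 3 it was -1.46 ± 0.15 (limma adjusted p = 0.000628), and within numbers 4 and 5 it was -0.60 ± 0.19 (limma adjusted p = 0.0449). The call within numbers 4 and 5 was kept in 12 of 19 alternatives and was lost with a pseudocount of 5, with no filter, and without EHBR liver 2, 4 or 5 or SD liver 4 or 5. That within numbers 1 to 3 was kept in all 19 alternatives run. The gene lies at chr1:218090750-218100325 on the minus strand of rn6.

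Cdk4, the partner of cyclin D1, was the most abundant gene of the list, with 67.2, 63.4, 62.5, 76.0 and 61.2 TPM in EHBR, against 58.6, 59.9, 57.0, 62.5 and 73.4 TPM in SD. The strains overlapped, and Cdk4 was the only gene of the list for which SD livers 4 and 5 were both above SD livers 1 to 3. It differed by 0.01 ± 0.12 within numbers 4 and 5 (limma adjusted p = 0.962). Cdk2 had 8.43, 8.11, 8.74, 6.58 and 4.55 TPM in EHBR, against 7.49, 9.90, 9.39, 6.46 and 4.54 TPM in SD. Livers 4 and 5 were the lowest of each strain for Cdk2, with almost the same values in both strains, and it differed by 0.01 ± 0.20 (limma adjusted p = 0.969).

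Ccne1, cyclin E1, had 3.01, 1.66, 3.66, 0.946 and 0.689 TPM in EHBR, against 2.28, 2.09, 1.03, 0.814 and 0.686 TPM in SD, and was lowest in livers 4 and 5 of both strains. Ccne2, cyclin E2, lay between 1.21 and 2.04 TPM in EHBR and between 1.0 and 2.54 TPM in SD. Neither passed a test. The TPM values of Ccne2 were 0.66 to 2.03 above a rescaling of its FPKM on the log2 scale, so its level is uncertain, and the same gap reached 0.81 for Aurka. After median centring Cdk4, Cdk2 and Ccne1 were at -0.31, -0.30 and -0.26 within numbers 4 and 5, below 0 and not past the threshold.

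Cdkn1a, the inhibitor p21, had 3.28, 4.13, 4.65, 5.19 and 4.83 TPM in EHBR, against 3.99, 2.87, 4.09, 3.45 and 14.2 TPM in SD. SD liver 5 alone was high, with 394 reads where SD liver 4 had 93, and the other 9 livers overlapped. It differed by -0.45 ± 0.45 within numbers 4 and 5 (limma adjusted p = 0.474), and without SD liver 4 it was the 1 gene of the list called lower there. Cdkn1b, the inhibitor p27, had 13.8, 14.4, 13.3, 12.5 and 11.1 TPM in EHBR, against 11.5, 13.4, 16.8, 11.4 and 7.24 TPM in SD, with no separation of the strains. It differed by 0.34 ± 0.21 within numbers 4 and 5 (limma adjusted p = 0.254) and by 0.02 after median centring.

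The wider cell cycle was read from 8 further lists of 222 symbols that share no gene with the 36, of which 213 had a row and 134 passed the filter. Over all livers 6 of the 134 were higher in EHBR (4.48%, against 3.82% of all genes) and 2 were lower (1.49%, against 1.63%). Within numbers 4 and 5, 47 of the 134 were higher (35.1%, against 19.6% of all genes) and 2 lower (1.49%, against 3.38%). After median centring 8 were higher (5.97%, against 3.63%) and 2 lower (1.49%, against 8.9%). In mitosis and cytokinesis 18 of 30 were higher within numbers 4 and 5, and 2 after centring. In origin licensing and firing these counts were 7 of 17 and 3, and among the polymerases and fork proteins 10 of 22 and 0. In G1/S control 4 of 22 were higher (18.2%) and of the p53 targets 3 of 19 (15.8%), shares close to or below the 19.6% of all genes. After centring these were 1 (4.55%) and 2 (10.5%), against 3.63% of all genes.

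Cdca3, a trigger of mitotic entry, had 2.77 and 3.38 TPM in EHBR livers 4 and 5, against 0.436 and 0.473 TPM in SD livers 4 and 5, a difference of 1.48 ± 0.18 (limma adjusted p = 0.00264). Prc1, which bundles microtubules of the central spindle, had 1.38 and 1.88 TPM in EHBR livers 4 and 5, against 0.0247 and 0.169 TPM in SD livers 4 and 5, a difference of 1.26 ± 0.24 (limma adjusted p = 0.00973). Cdt1, the licensing factor that loads MCM, had 2.79 and 2.55 TPM in EHBR livers 4 and 5, against 0.710 and 0.252 TPM in SD livers 4 and 5, a difference of 1.33 ± 0.25 (limma adjusted p = 0.00922). These 3 were picked by their small adjusted p within numbers 4 and 5, so their order there is no separate result. Topbp1, an activator of origin firing and of the checkpoint kinase Atr, was higher in EHBR over all livers as well. Topbp1 had 7.24, 8.71, 6.36, 4.08 and 4.89 TPM in EHBR, against 2.78, 3.80, 3.09, 1.65 and 0.993 TPM in SD (difference 1.10 ± 0.26, limma adjusted p = 0.0296). The strains did not overlap for Topbp1.

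Markers of other cell types that divide in young liver were read beside these results. The 17 erythroid markers, 15 with a row and Gata1 at 0 in every liver, summed to 1384 to 3360 TPM in EHBR and to 997 to 2090 TPM in SD, with SD liver 4 the highest of SD. In EHBR the sums were 3320, 3360, 3032, 1384 and 1686 TPM in livers 1 to 5. Within numbers 1 to 3, 5 of the 9 tested were higher in EHBR (4.84% of all genes were). Over all livers Slc4a1 was higher and Tspo2 lower (11.1% each, against 3.82% and 1.63% of all genes). Within numbers 4 and 5 the same 2 were called (against 19.6% and 3.38%). The summed lymphocyte markers were 17.7 to 22.5 TPM in EHBR and 15 to 26.2 TPM in SD, with SD livers 4 and 5 the lowest. The stellate and fibroblast markers were at 133 and 140 TPM in EHBR livers 4 and 5, against 93.0 and 82.3 TPM in SD livers 4 and 5. Of the 7 tested, 4 were higher in EHBR there (57.1%, against 19.6% of all genes), with 0 after median centring (3.63% of all genes). The endothelial markers summed to 96.5 to 133 TPM in EHBR and to 76.6 to 97.4 TPM in SD. Of the 9 tested, 3 were higher in EHBR over all livers (33.3%, against 3.82% of all genes). Within numbers 1 to 3, 4 of them were higher (4.84% of all genes were). Within numbers 4 and 5, 2 were higher (22.2%, near the 19.6% of all genes), and 0 after median centring. The macrophage and myeloid markers summed to 481 to 873 TPM in EHBR and to 479 to 602 TPM in SD, and 0 of 13 passed there. Of the 3 cholangiocyte markers tested, 0 passed within numbers 4 and 5. Of the 10 hepatocyte markers, 3 were higher in EHBR there (30%, against 19.6% of all genes) and 1 was lower (10%, against 3.38%). After median centring 0 hepatocyte markers were higher and 2 were lower. Mitochondrially encoded genes took 14.1% to 16.2% of TPM in EHBR and 13.0% to 17.4% in SD, highest in SD livers 4 and 5. The part of these markers and of the mitochondrial share in the cell cycle result was not tested.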

How the data were processed

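Per the labels' protocols, liver RNA was prepared with TRIzol, poly(A) capture and strand-specific library chemistry. HISAT2 2.1.0, Trimmomatic 0.38, featureCounts 1.6.3, FastQC 0.11.7 and the build rn6 are listed in the submitters' processing notes, with no settings, role or order. No source used here says if strand was used in counting, and overlapping genes on opposite strands are therefore uncertain. The authors deposited TPM, FPKM and upper-quartile FPKM values per gene and sample. For some genes the deposited TPM is not a rescaling of the deposited FPKM.

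From these, limma 3.58.1 in R 4.3.3, with the trend option and two-sided tests, was fitted on log2(TPM + 1) for 11083 genes, those at 1 TPM or more in 5 or more of 10 samples. P-values were Benjamini-Hochberg adjusted over those genes, with a threshold of 0.05. Low genes change by more than a fold on the log2(TPM + 1) scale shows. The strain test used 1 factor. The within-part contrasts and their difference came from 1 fit with a mean for each strain and part, so that small groups share the spread of all 10 samples. Upper-quartile FPKM values were turned back into whole reads for 18036 genes, within 0.0002 reads, which made up at least 99.98% of each total. These reads served for depth and for limma-voom as an alternative. Floors for a count of 0 are 3 reads and cover only the counting error of that 0. The fits and the recovery were tested on simulated data. Python 3.11.15, pandas 2.3.3, numpy 2.4.6 and matplotlib 3.10.9 made tables and figures.

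All genes of the list could be named, with full statistics for those called in any contrast and for the 8 with the largest difference over all samples. From each further list, up to 3 called genes with the smallest adjusted p could be named or, where none was called, the most abundant. The genes, the lists and the tests were chosen with earlier results of these data known. Alternatives were other pseudocounts, filters, units and scalings, a spread with no trend, a block for the sample number, a term for the 2 parts, each part alone, and leaving out each sample. Limma-voom within parts and leaving out SD samples 4 and 5 were added after seeing the data.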

Additional observations from a re-analysis of the deposited data

Results flagged for a closer look

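Cdk1 in EHBR was lowest in EHBR liver 4, at 3.24 TPM, with the next liver at 5.49 TPM, a gap of 0.739 of the range over the 5 livers. Mcm3 in EHBR was highest in the same liver, at 3.12 TPM, with the next at 2.01 TPM (gap 0.717 of the range). Cdkn1a in SD was highest in SD liver 5, at 14.2 TPM, with the next at 4.09 TPM (gap 0.892 of the range). Kif11 in SD was highest in SD liver 3, at 1.13 TPM, with the next at 0.701 TPM (gap 0.72 of the range). Each is a liver far from the other 4 of its strain by Dixon's criterion, which 4 of 68 gene and strain groups met. Chance alone gives about 1 in 20 such groups.

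The hemoglobin genes Hba-a1 and Hba-a2, read as erythroid markers, had strain differences that differed between the 2 parts of the series. Hba-a1 had 1580, 1770, 1550, 652 and 857 TPM in EHBR livers 1 to 5, against 698, 806, 543, 881 and 843 TPM in SD livers 1 to 5. The strain difference within numbers 4 and 5 minus that within numbers 1 to 3 was -1.48 for Hba-a1 (limma adjusted p = 0.0431) and -1.54 for Hba-a2 (limma adjusted p = 0.0388).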

How the results depend on the processing

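Over all livers, 0 genes of the list were higher under other pseudocounts, filters, units and scalings, without the trend, by voom, and without each liver in turn (0 to 0 higher, 0 to 0 lower, 381 to 608 of all genes called). A term for the 2 parts gave 4 higher (Ccnb1, Pcna, Plk1, Rrm2) and 1 lower (Ccnd1), with 1878 genes called in all. Numbers 4 and 5 alone gave 6 of 29 higher (20.7%, against 4.15% of all genes). Numbers 1 to 3 alone and SD livers 4 and 5 left out gave 1 lower each (3.45%, against 2.17% and 2.38% of all genes). Mcm5 turned to -0.20 and Mcm6 to -0.16 in numbers 1 to 3 alone, and Mcm5 to -0.02 with SD livers 4 and 5 left out. The sample number as a replicate block gave 2 higher (Plk1, Ccnb1) and 1 lower (Ccnd1), with 861 genes called in all. After each gene was centred on the mean of its strain, same-numbered livers of the strains correlated at 0.13, 0.29, 0.07, 0.25 and 0.27. The correlations between strains followed the 2 parts. Livers both numbered 1 to 3 correlated at 0.05 to 0.31, and livers both numbered 4 or 5 at 0.25 to 0.4. Livers from different parts correlated at -0.37 to -0.09. The labels name no pairing, and whether same-numbered livers were handled together cannot be told from these values. Not every liver correlated best with its own number.

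Within numbers 4 and 5, genes of the list higher in EHBR were 11 of 29 with a pseudocount of 5 (15.3% of all genes were higher), 11 in FPKM (9.28%), 11 in upper-quartile FPKM (5.54%), 8 after median centring (3.63%), 8 after quantile normalization (4.35%) and 12 by voom (5.29%). With a mean of 5 TPM or more, 3 of the 9 genes still tested were higher (23.1% of all genes). The list had 0 lower with a pseudocount of 5 and 0 with no filter. All genes called in either direction were 1524 in FPKM, 1459 in upper-quartile FPKM, 1388 after centring, 925 after quantile normalization and 1590 by voom. Without 1 liver in turn, 5 to 18 were higher and 0 to 1 lower, with 456 to 2692 genes called in all. Within numbers 1 to 3 these were 0 to 0, 1 to 1 and 332 to 786. For the difference between the parts, all genes called were 52 with a pseudocount of 0.1 (2 of the list), 13 with no filter, 55 with a mean of 5 TPM or more, 14 in FPKM, 19 in upper-quartile FPKM and 50 by voom, and without 1 liver in turn 12 to 52, with 0 to 0 of the list. The cause of these shifts was not tested.

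With under 10 reads in SD livers 4 and 5 for Cdk1 and Ccna2, and 0 for Rrm2, the size of those differences is imprecise and depends on the pseudocount, while their direction held in every alternative run within numbers 4 and 5.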

Other observations

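Fanci, a DNA crosslink repair gene, was lower in EHBR, against the direction of most replication genes. It had 2.89, 2.69, 3.16, 2.13 and 3.25 TPM in EHBR livers 1 to 5, against 6.03, 4.24, 4.74, 4.79 and 4.43 TPM in SD livers 1 to 5. The strains did not overlap, and the difference over all livers was -0.61 ± 0.14 (limma adjusted p = 0.0214). Aen, a p53-induced nuclease, had 10.1, 9.66, 11.3, 8.94 and 8.46 TPM in EHBR, against 6.74, 5.67, 6.72, 4.14 and 3.12 TPM in SD, again with no overlap. It differed by 0.80 ± 0.18 over all livers (limma adjusted p = 0.0261). H2ax, the histone variant phosphorylated at DNA breaks, had 20.1, 17.6, 16.5, 11.1 and 12.1 TPM in EHBR, against 19.1, 17.4, 13.6, 5.49 and 7.48 TPM in SD. The strains overlapped for H2ax in numbers 1 to 3. Within numbers 4 and 5 it differed by 0.77 ± 0.19 (limma adjusted p = 0.021), the contrast by whose small adjusted p it was picked. After median centring, 0 of the 11 tested genes of its list, the DNA damage checkpoint, were higher there.

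Pbk and Spc24 were the 2 genes of the mitosis list that were higher in EHBR over all livers. Pbk, a mitotic kinase, had 1.64, 1.89, 1.75, 1.54 and 1.72 TPM in EHBR, against 0.514, 1.30, 0.496, 0.316 and 0.116 TPM in SD (difference 0.85 ± 0.18, limma adjusted p = 0.0157). Spc24, a kinetochore protein of the Ndc80 complex, had 12.2, 19.7, 12.7, 23.2 and 16.1 TPM in EHBR, against 5.93, 8.99, 4.55, 4.35 and 10.8 TPM in SD (difference 1.20 ± 0.25, limma adjusted p = 0.0162). Neither overlapped between the strains. Mst1, which encodes the hepatocyte growth factor-like protein and stood in the list of growth signals, had 3.43 to 6.37 TPM in EHBR and 98.3 to 126 TPM in SD (difference -4.21 ± 0.16, limma adjusted p = 4.28e-08).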
